A study of Mus musculus with 6 samples.

Results

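The 8 genes that encode the perilipins (Plin1, Plin2, Plin3, Plin4 and Plin5) and the CIDE proteins (Cidea, Cideb and Cidec) were followed in mouse liver. They were taken by symbol from the 24346 genes of the expression table, and 8 of 8 were found. Liver RNA came from 3 control mice and 3 lipophagy-induced mice. All were male mice, C57BL/6 by the labels and C57BL/6J by the study's methods, that were fed CDAHFD, a high-fat diet without choline and with defined amino acids that serves as a model of nonalcoholic steatohepatitis, for 6 weeks from the age of 8 weeks. They were then returned to normal chow for 2 weeks. At the change of diet each mouse was given one intravenous dose of an AAV8 vector with the thyroxine-binding globulin promoter, which is active in hepatocytes. The control vector encoded LDTS-LIR mut, a lipid droplet-targeting sequence joined to an LC3-interacting region that no longer binds LC3. The lipophagy vector encoded LDTS-eLIR, in which the LC3-interacting region is engineered for stronger binding. Both vectors carry mCherry and a droplet-targeting part of mouse Plin1, so no group without this part, and no group on another diet, was measured here.

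A lipid droplet is a store of triglyceride and sterol ester under a single layer of phospholipid. Perilipins sit on this layer and control how lipases reach the stored fat. PLIN2 covers droplets in hepatocytes and in most other cells, PLIN3 moves from the cytosol to new droplets, PLIN5 ties droplets to mitochondria in tissues that burn fat, and PLIN1 and PLIN4 belong mainly to adipocytes. CIDE proteins gather where droplets touch. CIDEC, also called FSP27, and CIDEA let a large droplet take up the content of a smaller one, while CIDEB works in hepatocytes and in the loading of very low-density lipoproteins with lipid. Fatty livers are known for high Cidec, Plin2 and Plin4, genes that respond to the nuclear receptors PPARγ and PPARα.

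Values are FPKM, in which fragments are scaled to the length of the transcript and to the size of the library, so that levels of different genes can be set side by side. In control livers the order from high to low was Cideb, Plin2, Plin1, Plin3, Plin5, Cidec, Plin4 and Cidea. In this order the values of Plin1 may include vector fragments, and those of Cideb and Plin4 may include fragments of overlapping genes. The means ran from 219 FPKM for Cideb to 0.0488 FPKM for Cidea. The highest of these were close neighbours, since the lowest Cideb value in control livers was 213 FPKM and the highest Plin2 value was 213 FPKM. In lipophagy livers the same order held for the means, but the ranges of Cidec (0.818 to 2.72 FPKM) and Plin4 (0.594 to 3.18 FPKM) overlapped, so that these neighbours did not differ beyond their spread.

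**Figure D1:**
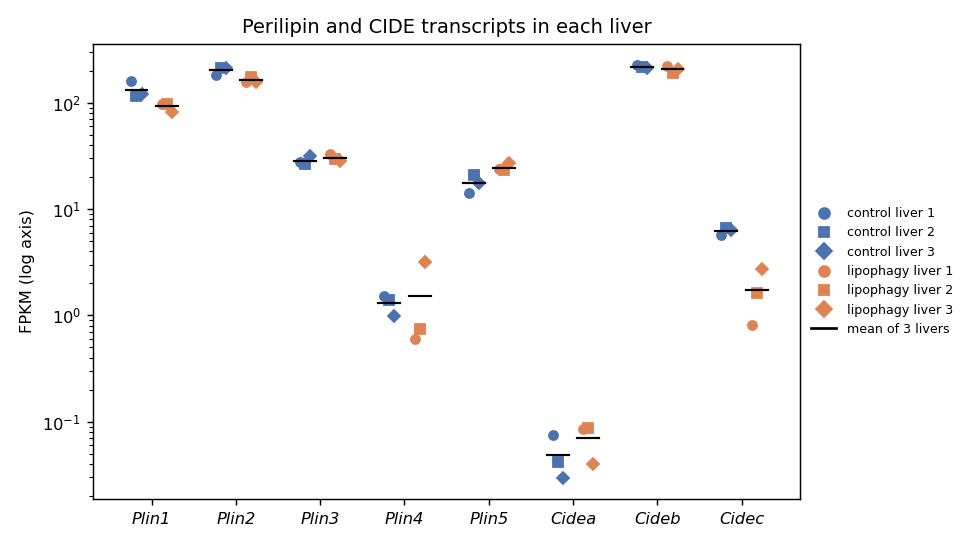
FPKM of the 8 genes (logarithmic axis) in 3 control and 3 lipophagy livers, with a line at the mean of each group, where Plin1 may include vector fragments. Cidec, Plin1 and Plin2 lie lower in every lipophagy liver than in every control liver, Plin5 lies higher, and the groups of the other 4 genes overlap.

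Changes were tested on log2(FPKM + 1) with limma over the 11493 genes that had a mean of at least 0.5 FPKM, and p-values were adjusted by the Benjamini-Hochberg method over all of them. Of the 8 genes 7 were tested, and Cidea fell under the filter. An adjusted p below 0.05 was reached by 0 of the 7, against 0.0261% of all genes tested. An unadjusted p below 0.05 was found for 4 of the 7, against 19.5% of all genes. Of these 3 were lower in lipophagy livers, against a background of 7.97%, and 1 was higher, against 11.5%. The 3 lower genes include Plin1, whose values may include vector fragments. The same 4 genes had groups that did not overlap (26.2% of all genes tested), 3 of them lower (background 10.8%) and 1 higher (background 15.4%). For a single gene the two-sided exact permutation test of 3 livers against 3 cannot give a p below 0.1, and it gave 0.1 for each of these 4 genes. The depth, estimated from the spacing of low values, was 22.6 to 33.95 M fragments per liver. Each sample is one liver by its label, and the p-values measure the spread between these samples.

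Cidec was the member that differed most. It was at 5.76, 6.61 and 6.29 FPKM in control livers 1, 2 and 3 and at 0.818, 1.61 and 2.72 FPKM in lipophagy livers 1, 2 and 3. Every lipophagy liver was below every control liver, and the lipophagy livers were spread more widely than the controls. The control mean was 6.22 ± 0.430 FPKM and the lipophagy mean 1.72 ± 0.953 FPKM (SD, n = 3 each), which is 27.6% of the control level. On the log2(FPKM + 1) scale the difference was -1.47 (standard error 0.22, 95% interval -1.99 to -0.95, adjusted p = 0.0897, limma). By its p-value Cidec stood at place 22 of the 11493 genes. The adjusted p was 0.0251 (limma) without lipophagy liver 3, the highest of its group, and 0.0330 when all livers were scaled to the same FPKM total, with a range of 0.0199 to 0.336 over all alternatives. The estimated number of fragments behind the values was 241 to 335 in control livers and 30.4 to 104 in lipophagy livers.

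The other CIDE genes overlapped between the groups. Cideb was at 228, 216 and 213 FPKM in control livers and at 223, 192 and 206 FPKM in lipophagy livers. The groups overlapped, and the log2 difference was -0.082 (standard error 0.086, 95% interval -0.28 to 0.12, adjusted p = 0.616, limma). It was -0.27 with quantile normalization (adjusted p = 0.211, limma) and -0.26 with livers scaled to the same total (adjusted p = 0.118, limma), both with an unadjusted p below 0.05. Cidea was at 0.0750, 0.0420 and 0.0294 FPKM in control livers and at 0.0846, 0.0876 and 0.0404 FPKM in lipophagy livers. These values correspond to an estimated 0.952 to 1.93 fragments per liver, so no difference in Cidea was detectable at this depth. Because Cideb was so abundant, Cidec made up only 2.77% ± 0.269 of the summed FPKM of the 3 CIDE genes in control livers, and 0.832% ± 0.467 after lipophagy induction (SD, n = 3 each).

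Plin2, the main perilipin of hepatocytes, was lower to a smaller degree. It was at 180, 212 and 213 FPKM in control livers and at 157, 175 and 156 FPKM in lipophagy livers. The groups did not overlap, although control liver 1 and lipophagy liver 2 were close to each other. The control mean was 202 ± 18.7 FPKM and the lipophagy mean 163 ± 11.0 FPKM (SD, n = 3 each), or 80.6% of the control level. The log2 difference was -0.31 (standard error 0.098, 95% interval -0.53 to -0.081, adjusted p = 0.182, limma). With all livers scaled to the same FPKM total it was -0.49 (adjusted p = 0.0452, limma), and under that scaling the median of all tested genes moved from 0.020 to -0.12, so that relative to the median Plin2 was at -0.33 before and at -0.37 after. With quantile normalization it was -0.49 and, relative to the median, -0.50 (adjusted p = 0.0907, limma). Without control liver 2 or control liver 3 the unadjusted p of Plin2 was above 0.05 (limma, adjusted p = 0.371 and 0.382).

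Plin5 was the one member that was higher without overlap. It was at 14.3, 21.1 and 17.6 FPKM in control livers and at 23.7, 23.2 and 26.8 FPKM in lipophagy livers. All lipophagy livers were above all control livers, and control liver 1 was the lowest of the 6. The control mean was 17.7 ± 3.41 FPKM and the lipophagy mean 24.6 ± 1.97 FPKM (SD, n = 3 each), or 139% of the control level. The log2 difference was 0.47 (standard error 0.14, 95% interval 0.16 to 0.78, adjusted p = 0.162, limma), and it stayed between 0.29 and 0.60 over all alternatives. The lowest value, with livers scaled to the same total, had an unadjusted p of 0.0558 (limma).

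Plin1 was the third most abundant member, while adipocyte markers were near 0. It was at 160, 116 and 120 FPKM in control livers and at 97.9, 97.9 and 81.9 FPKM in lipophagy livers. Every lipophagy liver was below every control liver, and control liver 1 was the highest. The control mean was 132 ± 24.3 FPKM and the lipophagy mean 92.6 ± 9.23 FPKM (SD, n = 3 each), or 70.3% of the control level. The log2 difference was -0.49 (standard error 0.14, 95% interval -0.81 to -0.18, adjusted p = 0.157, limma), and it was -0.35 without control liver 1. The 8 adipocyte markers, among them Adipoq and Lep for the hormones adiponectin and leptin, were together at 0.145 to 0.203 FPKM in control livers and 0.118 to 0.516 FPKM in lipophagy livers. Lep was listed at 0 in all livers, and Adipoq did not exceed 0.0395 FPKM. Both vectors carry a part of the mouse Plin1 coding sequence, and a value per gene does not separate its fragments from those of the endogenous transcript. Vector and endogenous Plin1 can therefore not be told apart, and the FPKM of Plin1 is scaled to the length of the whole gene and not to that of the part in the vector.

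For Plin3 and Plin4 the groups overlapped. Plin3, whose protein is found on early droplets, was at 27.9, 26.3 and 31.2 FPKM in control livers and at 33.2, 29.3 and 28.1 FPKM in lipophagy livers. Its log2 difference was 0.082 (standard error 0.097, 95% interval -0.14 to 0.30, adjusted p = 0.656, limma), with the sign turned by quantile normalization (-0.041) and by scaling to the same total (-0.095). Plin4 was at 1.52, 1.40 and 0.987 FPKM in control livers and at 0.594, 0.747 and 3.18 FPKM in lipophagy livers. Lipophagy livers 1 and 2 were below all controls and lipophagy liver 3 was above them, so that the difference of -0.014 (standard error 0.33, 95% interval -0.77 to 0.74) depended on that liver. Without it the log2 difference of Plin4 was -0.46 (unadjusted p = 0.00778, adjusted p = 0.155, limma). The estimated fragments of Plin4 ranged from 78.8 to 435 per liver.

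**Figure D2:**
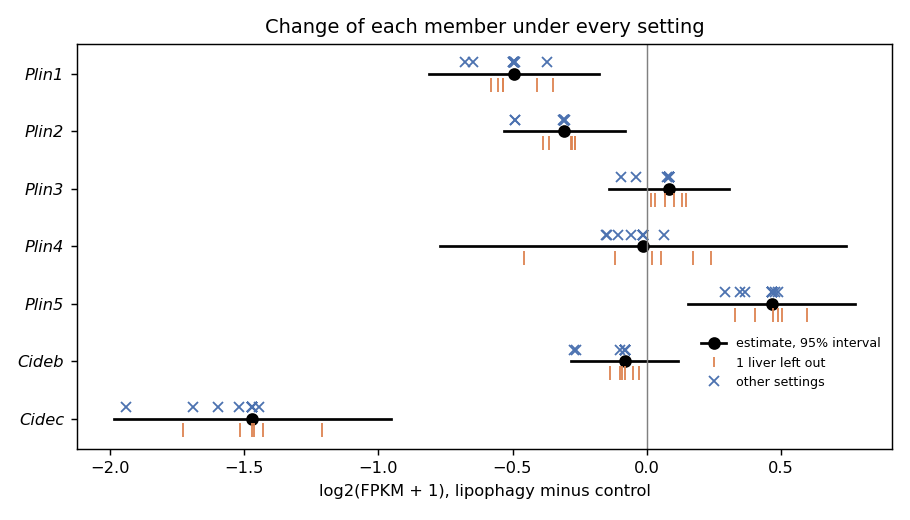
Difference of log2(FPKM + 1) between lipophagy and control livers for the 7 genes tested, with its 95% interval (limma), the values with 1 liver left out (bars) and the values under other settings (crosses). Cidec stays between -1.94 and -1.21 and Plin5 between 0.29 and 0.60, while Plin3 and Plin4 have values on both sides of 0.

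Plin5 and Plin3 held larger shares of the summed perilipin FPKM in lipophagy livers, with or without Plin1 in the sum, while the sum itself and the share of Plin2 depended on Plin1, whose values may include vector fragments. The summed FPKM of the 5 genes was 384, 377 and 383 in control livers and 312, 327 and 296 in lipophagy livers. Plin2 held 53.0% ± 5.22 of the sum in control livers and 52.2% ± 1.82 after lipophagy induction (SD, n = 3 each), a difference well within the spread. The share of Plin5 was 3.73%, 5.60% and 4.60% in control livers and 7.59%, 7.10% and 9.05% in lipophagy livers. Its ranges did not overlap, and neither did those of Plin3, which held 6.98% to 8.16% in control livers and 8.98% to 10.6% in lipophagy livers. The share of Plin1 was 41.6%, 30.7% and 31.3% in control livers and 31.4%, 30.0% and 27.6% in lipophagy livers, with overlap. The FPKM of Plin3 itself overlapped between the groups. Without Plin1, a sum chosen after seeing the data, the other perilipins together had overlapping levels of 224, 261 and 263 FPKM in control livers and 214, 229 and 214 FPKM in lipophagy livers. In that sum the share of Plin2 was 80.5% to 81.3% in control livers and 72.9% to 76.7% in lipophagy livers, without overlap. The share of Plin5 was then 6.38% to 8.09% in control livers and 10.1% to 12.5% in lipophagy livers, and that of Plin3 10.1% to 12.5% and 12.8% to 15.5%. These shares are descriptions, with no test, and they do not depend on the scaling between livers.

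**Figure D3:**
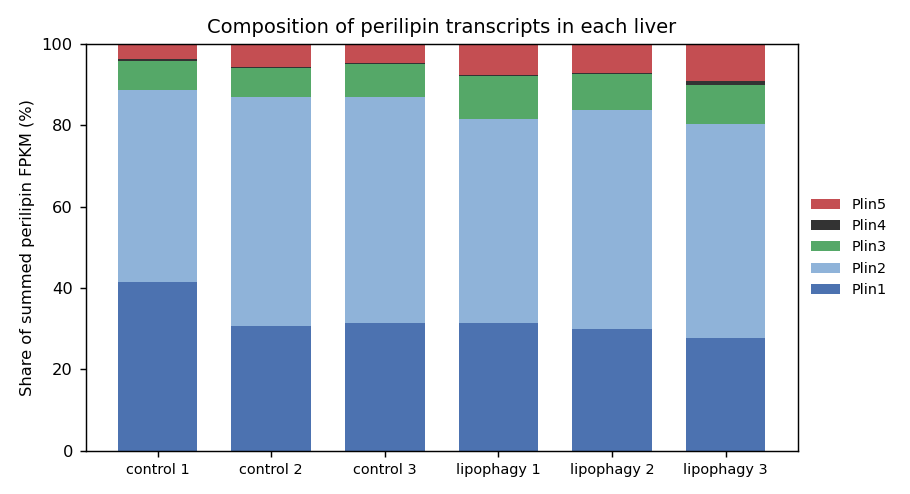
Share of each perilipin in the summed FPKM of the 5 genes, in percent, for each of the 6 livers, where Plin1 may include vector fragments. Plin2 is the largest part of every bar, and the part of Plin5 is 7.10% to 9.05% in lipophagy livers against 3.73% to 5.60% in control livers.

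Of all pairs of tested members, Plin1 and Plin5 had the correlation farthest from 0, a negative one, and the pair was picked for that. The values of Plin1 may include vector fragments. Control liver 1 had the highest Plin1 (160 FPKM) and the lowest Plin5 (14.3 FPKM), and lipophagy liver 3 had the lowest Plin1 (81.9 FPKM) and the highest Plin5 (26.8 FPKM). Over the 6 livers Pearson's r of log2(FPKM + 1) was -0.98 for this pair, which includes the difference between the groups and is given as a description. It was 0.81 for Plin2 and Cidec, and 0.34 for Plin4 and Cidec.

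**Figure D4:**
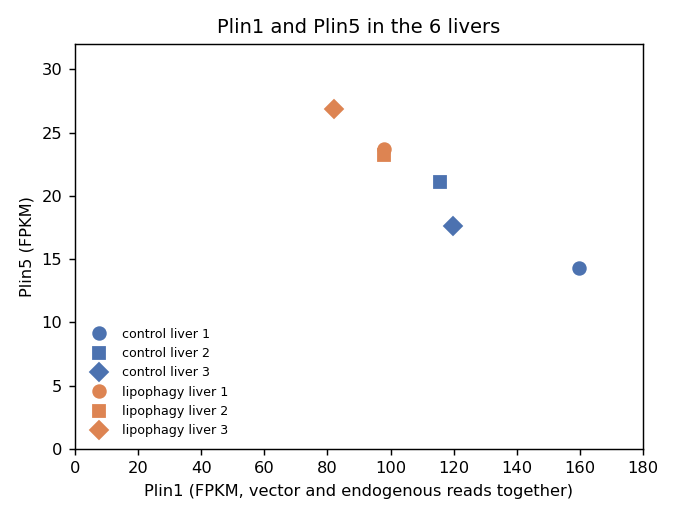
Plin5 against Plin1 in the 6 livers, both in FPKM, where Plin1 may include fragments of the vector. Control liver 1 is at 160 FPKM of Plin1 and 14.3 FPKM of Plin5, lipophagy liver 3 is at 81.9 and 26.8 FPKM, and the other livers lie between them.

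The genes whose levels were most like those of a member were named by the same correlation over the 6 livers, among all genes tested. For Cidec these were Epb4.1l2 (r = 0.995), Sfxn3 (r = 0.993) and Casp1 (r = 0.993). Casp1, the protease of the inflammasome, was at 3.62, 3.82 and 3.73 FPKM in control livers and 2.77, 3.10 and 3.25 FPKM in lipophagy livers. For Plin2 they were Emp2 (r = 0.996), Spats2l (r = 0.993) and Hmha1 (r = 0.991), and for Plin5 they were Ero1lb (r = 0.998), Fam195a (r = 0.995) and Jmjd6 (r = 0.993). Plin1 was closest to Nr3c2 (r = 0.993), Elf1 (r = 0.992) and Lcp2 (r = 0.988), and Plin4 to Pfkfb2 (r = 0.993), Pigw (r = 0.987) and Cipc (r = 0.987). Plin3 was closest to Hscb, Nat9 and Riok1 (r = 0.976 to 0.979) and Cideb to Dcn, Sulf2 and Jam2 (r = 0.978 to 0.985). With 6 livers and 11493 genes such values are high for every member.

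On the genome (GRCm38.p6, the same assembly as the mm10 of the processing notes) the tested members lie on 5 chromosomes, all on the minus strand. Cidec lies at chr6:113424634-113435760, Plin2 at chr4:86626910-86670217, Plin1 at chr7:79721164-79732904 and Cideb at chr14:55754052-55758424. Plin4 (chr17:56100587-56109948), Plin5 (chr17:56111597-56117606) and Plin3 (chr17:56278962-56290511) are neighbours, with 1648 bases between Plin4 and Plin5 and 161355 bases between Plin5 and Plin3. Although Plin4 and Plin5 are adjacent, their values over the livers were not alike (r = 0.17). Exons of Cideb overlap those of Nop9 and exons of Plin4 those of Hdgfl2, each on the other strand. The library kit keeps the strand, but whether counting used it is not given in the sources used here, so the values of Cideb and Plin4 may include fragments of these neighbours.

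Promoters are printed for the 3 genes that differed most apart from Plin1, whose values may include the vector. Each sequence runs 5′ to 3′ along the minus strand from 250 bases before to 50 bases after a RefSeq start site (GRCm38.p6). Cidec and Plin5 each have a pair of annotated starts, and values per gene do not tell which was used. Both are printed for Cidec, and for Plin5 the one farther upstream. Capitals mark matches, on either strand, to DR1 with up to 2 mismatches (a direct repeat of AGGTCA with 1 base between the copies, which PPAR and RXR bind as a pair) and to TTGCNNAA (a C/EBP-like element). Exact matches to TGACGTCA and TGACG, the full and the shorter cAMP response element, were also searched and found in none of the 9 promoter entries of the 7 members with one. Single copies of AGGTCA and the TATAAA box were searched too and are not marked.
Plin2 (chr4:86670010-86670309): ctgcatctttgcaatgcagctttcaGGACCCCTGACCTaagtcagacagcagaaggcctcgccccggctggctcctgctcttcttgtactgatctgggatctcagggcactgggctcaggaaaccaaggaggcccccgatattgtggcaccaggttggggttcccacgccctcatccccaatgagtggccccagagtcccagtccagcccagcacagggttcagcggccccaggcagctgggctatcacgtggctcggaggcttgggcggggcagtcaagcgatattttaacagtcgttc
Cidec, first start (chr6:113435711-113436010): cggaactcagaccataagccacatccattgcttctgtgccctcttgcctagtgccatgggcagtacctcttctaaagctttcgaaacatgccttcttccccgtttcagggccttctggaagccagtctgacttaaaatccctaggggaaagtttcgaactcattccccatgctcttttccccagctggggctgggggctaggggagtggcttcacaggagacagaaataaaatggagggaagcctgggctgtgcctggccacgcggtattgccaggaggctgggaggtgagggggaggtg
Cidec, second start (chr6:113434715-113435014): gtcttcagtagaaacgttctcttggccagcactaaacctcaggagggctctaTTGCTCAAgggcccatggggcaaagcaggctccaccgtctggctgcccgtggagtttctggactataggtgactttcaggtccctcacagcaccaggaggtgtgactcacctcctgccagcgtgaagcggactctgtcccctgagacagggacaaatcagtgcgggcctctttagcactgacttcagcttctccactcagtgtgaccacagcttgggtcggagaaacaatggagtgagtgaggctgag
Plin5 (chr17:56117499-56117798): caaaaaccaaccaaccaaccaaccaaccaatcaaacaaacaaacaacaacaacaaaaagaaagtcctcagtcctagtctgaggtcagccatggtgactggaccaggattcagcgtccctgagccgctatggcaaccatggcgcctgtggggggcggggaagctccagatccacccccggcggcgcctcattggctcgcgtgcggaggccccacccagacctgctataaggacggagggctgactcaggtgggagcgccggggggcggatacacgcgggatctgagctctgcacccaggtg
The promoter of Plin2 held a DR1-like match, read on the strand opposite to the printed one, that begins at position -225 from the start site, and the promoter of the second Cidec start held a C/EBP-like match at position -198. The printed Plin5 promoter held neither of these, but a single AGGTCA at position -170, and its other entry held one at position 14. Outside the printed sequences, Plin1 held the C/EBP-like match at positions -187 and -58 and Cideb held TATAAA at position -172. Of 32851 mouse promoters of this length, 3.86% held the DR1-like match, 10.8% the C/EBP-like one, 16.3% a single AGGTCA and 13.6% TATAAA, while TGACGTCA was in 1.79% and TGACG in 20.8%. The exact DR1 letters were in 0.0396% of all promoters and in none of the members. The DR1-like match of Plin2 contains a single AGGTCA at position -218, and a match in letters does not show that a factor binds there.

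None of the 14 transcription factors known to act on these genes passed the test. PPARγ drives Cidec and Plin4 in fatty liver, and Pparg was at 13.6, 10.6 and 9.69 FPKM in control livers and 10.2, 10.3 and 7.88 FPKM in lipophagy livers, which overlapped. Its log2 difference was -0.23 (standard error 0.14, 95% interval -0.55 to 0.096, adjusted p = 0.390, limma). Ppara, the receptor for fatty acids in hepatocytes, was at 19.9, 15.9 and 21.1 FPKM against 13.6, 18.4 and 23.9 FPKM (log2 difference -0.049, standard error 0.19). Creb3l3, a membrane-bound factor of the fasting liver, was at 92.2, 132 and 135 FPKM against 134, 160 and 148 FPKM (0.31, standard error 0.15, adjusted p = 0.293, limma). Cebpa, a factor of hepatocyte and adipocyte genes, differed by 0.016 (standard error 0.095). Srebf1, the factor of fat synthesis, had the largest difference of the list (0.59, standard error 0.31, with overlap, adjusted p = 0.318, limma), and Ppard was at -0.14 (standard error 0.096). The rank of Srebf1 rested on lipophagy liver 1, without which it was at 0.26 and Creb3l3 at 0.38. Of the 14 factors tested 0 had an unadjusted p below 0.05 (19.5% of all genes) and 0 an adjusted one (0.0261%). The median of the list was 0.087, against 0.020 over all tested genes, and it was -0.066 when livers were scaled to the same total.

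The 5 other tested genes that respond to PPARγ all had smaller differences than Cidec. Cd36, a fatty acid transporter that rises in fatty liver, was at 31.5, 32.2 and 32.7 FPKM in control livers and at 31.6, 33.5 and 33.2 FPKM in lipophagy livers. Its 6 values were almost level, with a log2 difference of 0.027 (standard error 0.070, 95% interval -0.14 to 0.19, adjusted p = 0.854, limma). Fabp4, a fatty acid binding protein of adipocytes and macrophages, was at -0.24 (standard error 0.14), Lpl, a lipase of the vessel wall, at -0.31 (standard error 0.18), and both overlapped. Lpl was at -0.13 without lipophagy liver 1 and Fabp4 at -0.11 without control liver 3. Gpd1, which makes glycerol 3-phosphate for triglyceride, was higher in each lipophagy liver (143 ± 13.2 against 199 ± 48.1 FPKM, SD, n = 3 each, adjusted p = 0.207, limma), by 0.45 on the log2 scale, or 0.27 without lipophagy liver 1. Of the 7 genes listed 5 were tested, 3 lower and 2 higher, and their median was -0.14, or -0.068 without lipophagy liver 2 and -0.076 without lipophagy liver 3. Only Gpd1 among these 5 had an unadjusted p below 0.05, a share near the 19.5% of all genes, and 0 passed the adjustment.

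Among genes that respond to PPARα, 6 of 10 had an unadjusted p below 0.05, 5 of them higher (11.5% of all genes tested) and 1 lower (7.97%), and 0 passed the adjustment over all genes. Cyp4a10, a fatty acid ω-hydroxylase, was at 39.1, 25.0 and 28.0 FPKM in control livers and 91.4, 57.4 and 60.4 FPKM in lipophagy livers (log2 difference 1.15, standard error 0.21, adjusted p = 0.112, limma). Cyp4a14, its neighbour, was at 13.8, 12.9 and 9.97 FPKM in control livers and 51.8, 17.5 and 18.5 FPKM in lipophagy livers (1.03, standard error 0.37, and 0.53 without lipophagy liver 1). Angptl4, an inhibitor of lipoprotein lipase (0.88), Acot1, an acyl-CoA thioesterase (0.63, and 0.31 without control liver 1), and Ehhadh, of peroxisomal β-oxidation (0.21), were higher in lipophagy livers without overlap. Fgf21, a hormone that the liver releases on fasting and under stress, was at 3.52, 3.61 and 2.34 FPKM in control livers and 1.41, 1.58 and 0.986 FPKM in lipophagy livers (-0.83, standard error 0.15, adjusted p = 0.111, limma). Cpt1a was at -0.30 (standard error 0.16) with overlap. The median of the list was 0.16, and it was 0.048 with quantile normalization and -0.023 when livers were scaled to the same total.

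**Figure D5:**
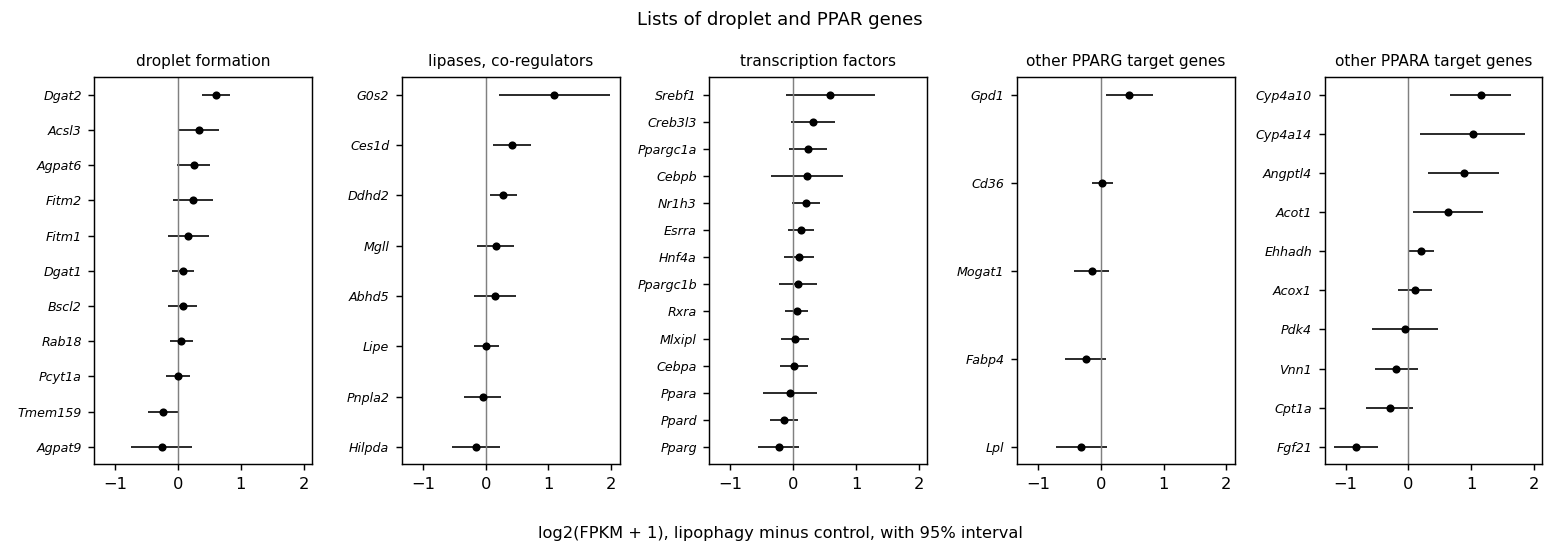
Differences of log2(FPKM + 1) between lipophagy and control livers, with 95% intervals (limma), for the tested genes of 5 pathway lists, written with earlier results of these data known. Cd36 and the transcription factor Cebpa lie near 0, Dgat2 and Cyp4a10 lie to the right and Fgf21 to the left.

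The genes of droplet formation and breakdown were set beside the coat genes. Of 11 formation genes 9 were higher, with a median of 0.078 that turned to -0.090 when livers were scaled to the same total. Dgat2, the enzyme of the last step of triglyceride synthesis, was at 119, 124 and 123 FPKM in control livers and 191, 164 and 203 FPKM in lipophagy livers (0.60, standard error 0.095, adjusted p = 0.0915, limma), without overlap. Acsl3, which activates fatty acids on new droplets, was at 0.34 (standard error 0.14) with overlapping livers, Agpat9 (Gpat3) at -0.26 (standard error 0.21), and Tmem159 (Ldaf1), the partner of seipin, at -0.24 (standard error 0.11). An unadjusted p below 0.05 was found for 2 of the 11, both higher, a share near the 19.5% of all genes tested.

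Among the 8 tested lipases and co-regulators, 3 had an unadjusted p below 0.05, all higher (11.5% of all genes tested), and the median was 0.15, or -0.019 when livers were scaled to the same total. G0s2, an inhibitor of the lipase ATGL, was at 30.3, 37.5 and 20.6 FPKM in control livers and 35.4, 59.3 and 114 FPKM in lipophagy livers (1.09, standard error 0.39, and 0.66 without lipophagy liver 3), with overlap. Ces1d (0.42, standard error 0.13) and Ddhd2 (0.28, standard error 0.093), a carboxylesterase and a lipid hydrolase, were higher without overlap. Pnpla2, which encodes ATGL, was at -0.049 (standard error 0.13), and Hilpda, another inhibitor of ATGL, at -0.15 (standard error 0.17). Of 15 other proteins of the droplet surface 12 were higher, with a median of 0.096 that turned to -0.068 under the same scaling, and 2 had an unadjusted p below 0.05, against 19.5% of all genes. These were Cyb5r3, a cytochrome b5 reductase (0.19, standard error 0.077, no overlap), and Cav1, the coat protein of caveolae (-0.31, standard error 0.13, with overlap). Nsdhl, of cholesterol synthesis, was at 0.21 (standard error 0.11) and Vps13c, a lipid transfer protein, at -0.064 (standard error 0.10). Of these 3 lists 0 genes passed the adjustment over all genes.

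Liver contains other cells that make perilipins, among them macrophages and stellate cells, which both hold Plin2. In bulk tissue fewer cells of a type and less RNA per cell cannot be told apart. Of 8 macrophage markers 6 were lower in lipophagy livers (45.5% of all genes tested were), and Cd68 (-0.38, standard error 0.13) and Csf1r (-0.28, standard error 0.077) did not overlap, where 10.8% of all genes were lower without overlap. The summed level of the 8 was 525 to 711 FPKM in control livers and 522 to 648 FPKM in lipophagy livers. Of 6 stellate cell markers 5 were lower, with sums of 130 to 148 FPKM and 108 to 143 FPKM that were mostly Dcn. Col1a1, of fibrillar collagen (-0.75, standard error 0.13, 53.8% of the control level, adjusted p = 0.103, limma), and Rgs5 (-0.37, standard error 0.12, 65.5%) did not overlap. All of these markers were detected, and their part in the difference of Plin2 was not tested. Hepatocyte markers were abundant as the tissue label says, with summed levels of 60881 to 68690 FPKM in control livers and 71575 to 94322 FPKM in lipophagy livers that were mostly Alb. Without Alb the other 7 summed to overlapping levels of 25411 to 29532 FPKM and 26566 to 30233 FPKM, and 5 of the 8 markers were higher (54.5% of all genes were). Of the 8 markers 4, Alb, Ttr, Serpina1a and Ass1, were higher without overlap, where 15.4% of all genes were. Ass1 was at 0.72 (standard error 0.11, 167% of the control level, adjusted p = 0.0832, limma). The sums of 4 endothelial markers (6.12 to 7.92 and 5.57 to 8.21 FPKM) overlapped between the groups. All 3 bile duct markers were lower, with a median of -0.53 and overlapping sums of 5.08 to 10.4 FPKM and 3.87 to 8.38 FPKM. All 4 red blood cell genes were higher, with a median of 0.95, but without lipophagy liver 2 only 3 were higher and the median was 0.38. Hba-a2 was at most 0.0209 FPKM in all controls and lipophagy liver 3, but 10.1 and 11.6 FPKM in lipophagy livers 1 and 2. Hbb-bs was at 0.003 FPKM in control livers 1 and 2 and lipophagy liver 1. In the remaining livers it was at 3.85 to 5.66 FPKM. The group medians of Hba-a1 were close (control 23.0, lipophagy 23.3 FPKM). The median of 0.95 therefore does not describe a rise shared by the 4 genes. The sums of the 4 genes were 92.5 to 103 FPKM in control livers and 103 to 252 FPKM in lipophagy livers, and they were mostly Alas2 except in lipophagy liver 2. Alas2, of heme synthesis in red cell precursors, did not overlap (0.26, standard error 0.095), and Hba-a1, a hemoglobin gene, reached 141 FPKM in lipophagy liver 2. Their part in the differences of the members was not tested.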

How the data were processed

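RNA of 6 livers, 3 per group, was measured with a stranded mRNA kit and paired-end sequencing. The authors aligned reads to mm10 and deposited 1 table of FPKM per gene, and the submitters' processing notes name TopHat2 2.0.13, Bowtie2 2.2.3, SAMtools 0.1.19 and Cufflinks 2.2.1. Since the table gives no counts, tests for counts were not applied. Of 24346 genes 7161 were at 0 in all livers, 27 names had become dates and were left out of matching, and 11493 with a mean of at least 0.5 FPKM were tested on log2(FPKM + 1), which understates changes of low genes, with limma 3.58.1 (R 4.3.3, variance trend, both groups, no covariate) and Benjamini-Hochberg adjustment. Exact permutation tests were two-sided (Python 3.11.15, scipy 1.17.1). The code was tested on simulated data.

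Depth was estimated from the spacing of the values of 364 to 426 low genes per liver, with 150 bases taken off each length for the fragment. In each liver 70.7% to 78.0% of these values lay within 0.1 of a whole number of fragments, where evenly spread values would give 20%. The depth was chosen on these same values to bring them near whole numbers, so this share is no independent check of it. Fragment numbers are estimates.

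Members and lists were chosen with earlier results of these data known. Named in the text are the 8 members, in each pathway list the 2 largest rises and falls and every gene with an unadjusted p below 0.05 and groups that do not overlap, Pparg, Ppara, Creb3l3 and Cebpa, and the 3 genes most correlated with each member. Gpat3, Gpat4, Ldaf1, Spart, Tf and Trarg1 were read under older symbols of the table, and Hbb-bt was not matched. A gene of the PPARα list is not reported here and is left out of its counts and median. Promoters came from RefSeq (GRCm38.p6). Alternatives were other pseudocounts, filters, scalings and variance models, array weights, a replicate block and leaving out each liver.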

Additional observations from a re-analysis of the deposited data

How the results depend on the processing

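Of 305 values computed under alternatives, 15 had the opposite sign, 7 of them differences of Plin3 or Plin4, 5 list medians with livers scaled to the same total and 3 differences in the share of Plin2, which ranged from -3.79 to 0.883 percentage points with a liver left out and was -6.70 without Plin1 in the sum, an alternative chosen after seeing the data. Plin1, Plin5 and Cideb kept their direction, and none passed an adjusted p of 0.05, in every alternative run. That threshold was passed by Plin2 with livers scaled to the same total (-0.49), and by Cidec with that scaling (-1.60), array weights (-1.52), a replicate block (-1.47, adjusted p = 0.0199, limma) and without lipophagy liver 3. Leaving out a liver gave Cidec -1.73 to -1.21 and Plin4 -0.46 (lipophagy liver 3 omitted) to 0.24 (lipophagy liver 1 omitted). The sign turned for Plin3 with quantile normalization (-0.041) and the same total (-0.095), and for Plin4 with quantile normalization (0.065).

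Genes past an adjusted p of 0.05 numbered 3, against 1 without a filter, 104 with the same total, 39 with array weights, 43 with a replicate block and 1 to 11 with a liver left out (1 when control liver 3 was omitted, 7 for control liver 2, 5 for lipophagy liver 2 and 11 for lipophagy liver 3). At an unadjusted p below 0.05, higher genes numbered 745 with quantile normalization, 236 with the same total and 800 to 1609 with a liver left out (lowest when lipophagy liver 1 was omitted), and lower genes 899, 2504 and 602 to 943 (lowest when control liver 3 was omitted). List medians with quantile normalization and the same total were 0.016 and -0.090 for droplet formation, 0.0031 and -0.068 for other surface proteins, 0.0023 and -0.066 for transcription factors and 0.048 and -0.023 for PPARα genes, and -0.019 for lipases with the same total. The median of PPARγ genes was -0.25 and -0.22 with pseudocounts of 0.1 and 0.5. With a liver left out, medians were 0.057 (control liver 1 omitted) to 0.25 (control liver 2 omitted) for lipases and 0.054 (lipophagy liver 3 omitted) to 0.15 (lipophagy liver 1 omitted) for transcription factors.

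The deviations of samples of equal number from their group means correlated at 0.250, 0.234 and -0.057 for numbers 1, 2 and 3. The highest correlation, 0.251, was between control liver 3 and lipophagy liver 2. With 3 livers per group these values cannot decide whether samples of equal number belong together. The labels give a number and no pairing, so the samples were not treated as paired. Among named genes that overlapped, Srebf1 was at 0.26 and Acsl3 at 0.20 without lipophagy liver 1, and Creb3l3 at 0.14 and Pparg at -0.10 without control liver 1. Other such genes moved too. Without lipophagy liver 1 Cpt1a was at -0.13 and Ppara at 0.15. Hilpda was at 0.0080 without control liver 2 and Ppard at -0.056 without control liver 3. Agpat9 was at -0.14 without lipophagy liver 2 and at -0.52 without lipophagy liver 3, where Tmem159 was at -0.14. The precision was limited by 3 livers per group, by 1 to 2 fragments for Cidea, and by the lack of counts. The cause of each difference between settings was not tested.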

Other observations

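The lipophagy livers differed among themselves in several genes around the droplet, chosen here after their values were seen. Lipophagy liver 3 had the highest Plin4 (3.18 FPKM, against 0.594 and 0.747), G0s2 (114 FPKM, against 35.4 and 59.3) and Cidec (2.72 FPKM, against 0.818 and 1.61) of its group, and the lowest Plin1 (81.9 FPKM, against 97.9 and 97.9) and Fgf21 (0.986 FPKM, against 1.41 and 1.58). Plin2 (156 FPKM, against 157 and 175) and Cideb (206 FPKM, against 223 and 192) of this liver lay close to or within the values of the other two. Lipophagy liver 1 had the lowest Cidec and the highest Cyp4a14 (51.8 FPKM, against 17.5 and 18.5), Gpd1 (252 FPKM, against 184 and 160) and Srebf1 (90.4 FPKM, against 36.8 and 53.8). The genes most like Plin4 over the 6 livers were Pfkfb2, Pigw and Cipc (r = 0.987 to 0.993).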
